A study of Mus musculus with 405 samples.

Results

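Expression of 8 genes that mark GABAergic interneurons was followed through the exposure of mouse cortical cultures to environmental chemicals. The genes were taken by name: Gad1, Gad2 and Slc32a1, which make and package GABA, and the transcription factors Dlx1, Dlx2, Dlx5, Lhx6 and Sox6. All 8 were present in both tables used here, among the 13304 genes of the normalized screen table and the 23893 genes of the pyraclostrobin count table. Cortical neuron-enriched cultures had been prepared from embryos of C57BL/6J dams and CAST/EiJ males, labelled embryonic day 15, with a mitotic inhibitor added during culture in every group. On day 7 in vitro they received 1 chemical or vehicle (DMSO) for 24 h, and polyA RNA was sequenced. The screen table held 393 libraries, of which 49 were vehicle and 344 came from 297 chemicals. Of these chemicals 282 had a single library, whereas topotecan, a topoisomerase I inhibitor given at 0.3 μM, had 32. The count table held 4 libraries with pyraclostrobin at 0.1 μM and 4 with vehicle. The labels do not say which libraries came from separate animals or cultures, so p-values measure the spread between libraries, which may be technical.

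GABA is the main inhibitory transmitter of the cortex, and most neurons that release it there are interneurons. They are born outside the cortex, in the ganglionic eminences of the ventral forebrain, and migrate into it before birth. The homeobox factors Dlx1, Dlx2 and Dlx5 act in sequence in the progenitors and young neurons of this lineage. Lhx6, a LIM-homeodomain factor, and Sox6, an SRY-related factor that follows it, are needed for the interneurons of the medial ganglionic eminence, which include the somatostatin and parvalbumin types. Gad1 and Gad2 encode the glutamate decarboxylases that synthesize GABA, and Slc32a1 encodes the transporter that loads it into synaptic vesicles. Striatal projection neurons also make GABA and share the Dlx, Gad and Slc32a1 genes, and Sox6 is also expressed by neural and oligodendrocyte progenitors. In RNA from a whole well, fewer interneurons and less RNA per interneuron cannot be told apart.

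The members lie on 3 chromosomes of the mm9 build. Gad2 (chr2:22477725-22549394), Lhx6 (chr2:35937470-35960928), Gad1 (chr2:70391129-70440071) and Slc32a1 (chr2:158436494-158441484) are protein-coding genes of chromosome 2. Dlx1 (chr2:71366170-71372038) and Dlx2 (chr2:71381466-71384811) face each other as neighbours on the same chromosome. Dlx5 (chr6:6827805-6832085) lies beside Dlx6 on chromosome 6, and Sox6 (chr7:122614858-123182258) lies on chromosome 7. Their spans run from 3.3 kb for Dlx2 to 567.4 kb for Sox6, with 71.7 kb for Gad2, 48.9 kb for Gad1 and 23.5 kb for Lhx6. The antisense RNA Dlx1as (chr2:71354511-71375948) covers all of Dlx1 on the other strand. The library kit did not mark strand, so reads of Dlx1 and Dlx1as in their shared exons cannot be told apart.

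The 250 bases before the annotated start are shown for Gad1, Gad2, Slc32a1, Dlx1 and Dlx2, which each had a single window, because the first 4 were low together with complex I and III inhibitors while Dlx2 was not. They are RefSeq sequences of the GRCm38.p6 build, written 5′ to 3′ in the direction of the gene, which is the minus strand for Dlx2 and the plus strand for the others. Capitals mark the GC box GGGCGG on either strand (written as CCGCCC on the other).
Gad1, chr2:70561879-70562128: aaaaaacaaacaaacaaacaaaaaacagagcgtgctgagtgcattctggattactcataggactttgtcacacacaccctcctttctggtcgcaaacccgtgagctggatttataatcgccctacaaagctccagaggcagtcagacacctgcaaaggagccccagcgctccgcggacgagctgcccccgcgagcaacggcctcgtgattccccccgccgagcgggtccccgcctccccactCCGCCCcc
Gad2, chr2:22622077-22622326: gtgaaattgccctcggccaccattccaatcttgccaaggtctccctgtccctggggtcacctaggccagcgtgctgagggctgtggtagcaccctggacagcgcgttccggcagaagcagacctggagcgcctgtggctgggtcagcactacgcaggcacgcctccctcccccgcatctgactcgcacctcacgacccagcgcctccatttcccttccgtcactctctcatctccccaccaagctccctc
Slc32a1, chr2:158610508-158610757: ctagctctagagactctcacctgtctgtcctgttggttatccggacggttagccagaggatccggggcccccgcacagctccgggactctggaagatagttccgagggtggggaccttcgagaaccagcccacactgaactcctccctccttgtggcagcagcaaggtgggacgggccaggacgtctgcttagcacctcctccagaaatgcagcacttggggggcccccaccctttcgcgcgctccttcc
Dlx1, chr2:71529195-71529444: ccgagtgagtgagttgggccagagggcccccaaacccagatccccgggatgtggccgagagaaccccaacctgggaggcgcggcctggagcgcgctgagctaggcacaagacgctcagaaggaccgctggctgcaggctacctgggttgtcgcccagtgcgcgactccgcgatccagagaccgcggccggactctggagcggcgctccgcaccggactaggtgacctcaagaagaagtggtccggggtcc
Dlx2, chr2:71546755-71547004: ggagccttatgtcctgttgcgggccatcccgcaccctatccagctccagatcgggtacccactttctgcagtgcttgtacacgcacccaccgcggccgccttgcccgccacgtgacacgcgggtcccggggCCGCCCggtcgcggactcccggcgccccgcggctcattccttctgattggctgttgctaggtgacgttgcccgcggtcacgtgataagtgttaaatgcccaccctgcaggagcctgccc
GC content was 58.0% before Gad1, 64.0% before Gad2, 62.4% before Slc32a1, 68.0% before Dlx1 and 66.4% before Dlx2, against a median of 52.4% over all 32851 windows. The GC box stood once before Gad1 and once before Dlx2, and 32.7% of all windows held it. The palindrome TAATTA, a core bound by many homeodomain proteins, was in none of the 14 member windows, which include 3 for Lhx6 and 6 for Sox6, and in 4.84% of all windows. Dlx5 had no entry.

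Read totals of the count table were 2409623 to 2893598 in the 4 pyraclostrobin libraries and vehicle libraries 1 and 2, and 7833440 and 7082405 in vehicle libraries 3 and 4. The markers of the labelled tissue were present in all 4 vehicle libraries. The 6 pan-neuronal genes summed to 8400 to 8945 CPM, the unit of library-size-scaled counts used throughout (scaled by trimmed means), and the 10 genes of glutamatergic cortical neurons to 1635 to 1700 CPM. Astrocyte genes summed to 334 to 984 CPM, microglial genes to 21.7 to 28.4 CPM and genes of striatal projection neurons to 331 to 471 CPM. One vehicle and one pyraclostrobin library that carry the same number in their column names, called library 1 of each group below, stood apart. Vehicle library 1 had the 984 CPM of astrocyte genes, against 334 to 380 CPM in the other vehicle libraries. Pyraclostrobin library 1 had 3238 CPM of them, against 875 to 1067 CPM. In both libraries the GABA genes were low, so the members, their levels and the gene lists are also given without them.

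Per kilobase of exon, Slc32a1 was the member with the highest level in vehicle, at 68.3 ± 20.2 CPM per kb (SD, n = 4). It was above Gad2 in 4 of 4 libraries. Gad2 (34.7 ± 14.8 CPM per kb) and Gad1 (34 ± 9.19 CPM per kb) differed by less than their SDs, Gad2 being higher in 3 of 4 libraries. Dlx1 followed at 15.8 ± 4.85 CPM per kb, then Lhx6 at 14.3 ± 4.56, Dlx5 at 7.60 ± 1.80, Dlx2 at 5.99 ± 0.819 and Sox6 at 4.32 ± 1.07 CPM per kb. From Gad1 to Sox6 each member was above the next in 4 of 4 libraries. The means of Dlx1 and Lhx6, and those of Dlx5 and Dlx2, also differed by less than the larger SD of the pair. Without vehicle library 1, however, all 3 of these pairs were apart by more than the larger SD. Gad2 was then at 42 ± 2.92 and Gad1 at 38.4 ± 2.403 CPM per kb (SD, n = 3), with Gad2 higher in 3 of 3 libraries. Dlx1 was at 18.2 ± 1.07 and Lhx6 at 16.5 ± 1.09, and Dlx5 at 8.38 ± 1.10 and Dlx2 at 6.36 ± 0.421 CPM per kb. The order of Gad1 depends on the transcript taken: over the longest transcript in place of all exons its level was 72.0 CPM per kb, next to 35.5 for Gad2 and 68.5 for Slc32a1.

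Pyraclostrobin is a strobilurin fungicide that blocks complex III of the mitochondrial respiratory chain. Exposure at 0.1 μM was compared with vehicle in 4 against 4 libraries, asking whether this chain inhibitor changed the interneuron genes. At an adjusted p under 0.05 (edgeR quasi-likelihood test, 12324 genes tested), 3 members fell, 1 rose and 4 were not called. Of all genes tested 34.9% were called, 16.4% lower and 18.5% higher. Dlx1, Slc32a1 and Gad2 were the members that fell, and Sox6 was the one that rose.

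Dlx1 was at 46.7, 96.9, 93.1 and 104 CPM in vehicle libraries 1 to 4 and at 9.81, 45.5, 30.4 and 34 CPM in pyraclostrobin libraries 1 to 4. Every pyraclostrobin library was below every vehicle library. The mean was 2.86-fold lower, and the fitted log2 difference was -1.52 (SE 0.37, adjusted p = 0.00834). Dlx1as, its antisense partner, was at 50.3 to 108 CPM in vehicle and at 8.24 to 29.7 CPM with pyraclostrobin (log2 difference -1.95, SE 0.34, adjusted p = 0.00126).

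Slc32a1, the vesicular GABA transporter, was at 109, 208, 211 and 238 CPM in vehicle and at 22.4, 94.3, 86.0 and 102 CPM with pyraclostrobin. The groups did not overlap, the narrowest gap lying between vehicle library 1 and pyraclostrobin library 4. The mean was 2.52-fold lower (log2 difference -1.33, SE 0.38, adjusted p = 0.0184).

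Gad2 was at 75.2, 258, 227 and 255 CPM in vehicle and at 16.1, 107, 87.1 and 98.7 CPM with pyraclostrobin. Here the groups overlapped, because vehicle library 1 lay below 3 of the pyraclostrobin libraries. The mean was 2.64-fold lower (log2 difference -1.40, SE 0.49, adjusted p = 0.0450). The call of Gad2 was lost when any one of vehicle libraries 2, 3 and 4 or pyraclostrobin libraries 2, 3 and 4 was left out, with adjusted p between 0.0512 and 0.105, and under DESeq2 (0.0714).

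Sox6 was at 24.3, 44.4, 41.1 and 43.4 CPM in vehicle and at 104, 58.6, 74.2 and 66.4 CPM with pyraclostrobin. All pyraclostrobin libraries were above all vehicle libraries, and library 1 was the lowest of the vehicle and the highest of the treated ones. The mean was 1.96-fold higher (log2 difference 0.97, SE 0.22, adjusted p = 0.00589).

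Gad1, the other decarboxylase, was not called. It was at 157, 313, 276 and 292 CPM in vehicle and at 30.6, 170, 132 and 188 CPM with pyraclostrobin, with a log2 difference of -0.99 (SE 0.42, adjusted p = 0.0879). Library 1 was the lowest of each group, and vehicle library 1 lay among the treated libraries. Gad1 was called lower once vehicle library 1 (adjusted p = 0.0273) or pyraclostrobin library 1 (0.0466) was left out.

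Lhx6 had a similar layout, at 36, 75.5, 75.3 and 84.3 CPM in vehicle and at 13.7, 38.7, 48.3 and 45.8 CPM with pyraclostrobin (log2 difference -0.90, SE 0.35, adjusted p = 0.0658). It was called lower without vehicle library 1 (adjusted p = 0.00689). Dlx2 was at 13.9 to 19.5 CPM in vehicle and at 7.06 to 15.0 CPM with pyraclostrobin (log2 difference -0.50, SE 0.24, adjusted p = 0.122). Dlx5, the least counted member with 3 to 101 reads per library, was at 7.49 to 13.6 CPM and at 1.18 to 10.3 CPM (log2 difference -0.62, SE 0.42, adjusted p = 0.287). For both genes the groups overlapped.

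**Figure D1:**
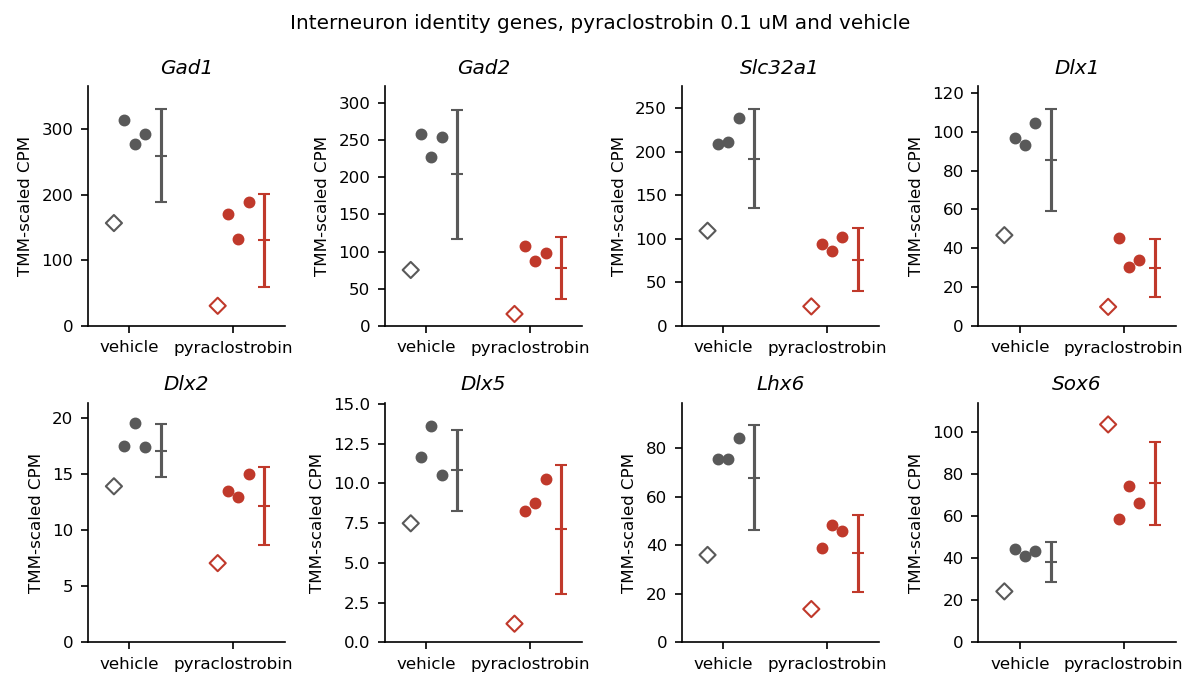
Scaled CPM (vertical axis, from 0) of each member in the 4 vehicle (grey) and 4 pyraclostrobin (red) libraries. Open diamonds are library 1 of each group, and bars are the mean ± SD over 4 libraries. Dlx1 and Slc32a1 are lower and Sox6 is higher in every treated library. Vehicle library 1 overlaps the treated range for Gad1, Gad2, Dlx2, Dlx5 and Lhx6.

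The study describes the vehicle controls as matched, and each pyraclostrobin library shares a number with 1 vehicle library. With that number as a block in the edgeR fit, 5 members were called lower and 1 higher, among 4804 genes in all. Gad1 (log2 difference -1.16, SE 0.23, adjusted p = 0.00346) and Lhx6 (-0.93, SE 0.15, 0.00119) were then called, and Dlx2 (-0.51, 0.0710) and Dlx5 (-0.67, 0.142) were not.

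Without library 1 of both groups (3 against 3), 5 members were called lower and 1 higher. The share of all genes called in this fit is not given here, so these counts have no background beside them. Library 1 was left out after the data were seen, in part because the GABA genes were low in it. The p-values of this fit are therefore a description and no independent test. Gad1 then had a log2 difference of -0.84 (SE 0.10, adjusted p = 1.02e-06), Gad2 of -1.33 (SE 0.09, 7.86e-10), Slc32a1 of -1.22 (SE 0.09, 1.77e-09) and Dlx1 of -1.42 (SE 0.13, 3.41e-08). Lhx6 had one of -0.83 (SE 0.11, 6.4e-06), and Sox6 one of 0.64 (SE 0.11, 0.000144). Dlx2 (-0.40, SE 0.18, 0.0727) and Dlx5 (-0.40, SE 0.22, 0.149) were not called. Standard errors were smaller than with all 8 libraries for every member, and the rise of Sox6 was smaller. In each group the libraries kept were closer to each other in their counts than to library 1. The smaller errors thus measure the spread among similar libraries, which may be technical.

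Other genes of the interneuron lineage moved with the members. Of 11 further transcription factors tested 5 fell and none rose, with a median log2 difference of -0.71 against -0.00 over all genes. Among them were Satb1, a chromatin organizer of maturing interneurons (-1.39, adjusted p = 0.000320), Dlx6 (-2.69, 0.00129), Npas1 (-1.35, 0.00423) and, outside the naming rule, Maf (-0.71, 0.0132). Dlx6 overlaps the antisense RNA Dlx6os1, so its reads are uncertain. Of 10 subtype genes tested 5 fell, among them the calcium-binding Calb1 (-1.86, adjusted p = 0.00156) and the serotonin receptor Htr3a (-1.86, 0.00646), the tachykinin gene Tac1 (-1.71, 0.0178), the calretinin gene Calb2 (-1.13, 0.0377) and, outside the naming rule, Cck (-1.45, 0.0450). Vehicle library 1 was the highest for Calb2 and Cck. Of 6 GABA-handling genes 3 fell, among them Slc6a11, a GABA transporter of glia (-0.62, 0.00283). Without library 1 of both groups 7 of 11 transcription factors were lower. Of 11 subtype genes then tested 9 were lower and 1 higher, and of 6 GABA-handling genes 4 were lower and 1 higher.

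Genes of other cell classes moved too. All 6 pan-neuronal genes fell (median -1.12), among them Tubb3 (-1.39, adjusted p = 1.14e-05), and 5 of 10 glutamatergic genes fell, led by Slc17a7, the vesicular glutamate transporter (-1.58, 7.06e-05). Of 7 genes of striatal projection neurons 4 fell, with a summed level of 331 to 471 CPM in vehicle and 182 to 336 CPM with pyraclostrobin. Of 7 astrocyte genes 5 rose (median 1.96), and their sum was 334 to 984 CPM in vehicle and 875 to 3238 CPM with pyraclostrobin. All 6 microglial genes (21.7 to 28.4 against 70.6 to 132 CPM), all 3 vascular and fibroblast genes (45.8 to 108 against 681 to 961 CPM) and 3 of 5 genes of the oligodendrocyte lineage (94.2 to 195 CPM in vehicle) rose. Without library 1 of both groups 5 of 7 striatal genes were lower and 1 higher, 6 of 10 glutamatergic genes were lower, 6 of 7 astrocyte genes were higher, and the pan-neuronal, microglial and vascular counts stayed at 6, 6 and 3. The part of these other cells in the change of the members was not tested.

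The 7 members other than Sox6 were set against the pan-neuronal genes within each library. Their sum was 49.8, 113, 108 and 119 CPM per 1000 CPM of pan-neuronal genes in vehicle libraries 1 to 4. With pyraclostrobin it was 28.2, 108, 105 and 110 CPM per 1000 CPM. The ranges overlapped, although the value was lower with pyraclostrobin in each of the 4 pairs of same-numbered libraries. For the glutamatergic genes the same quantity was 186 to 200 in vehicle and 268 to 294 with pyraclostrobin, with no overlap. Sox6 was higher in every treated library than in any vehicle library. For the astrocyte genes the groups overlapped, through vehicle library 1 alone. It was at 984 CPM, above pyraclostrobin libraries 2 (875 CPM) and 4 (879 CPM), and its Sox6 was at 24.3 CPM. The part of astrocytes, progenitors or other cells in the rise of Sox6 was not tested.

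**Figure D2:**
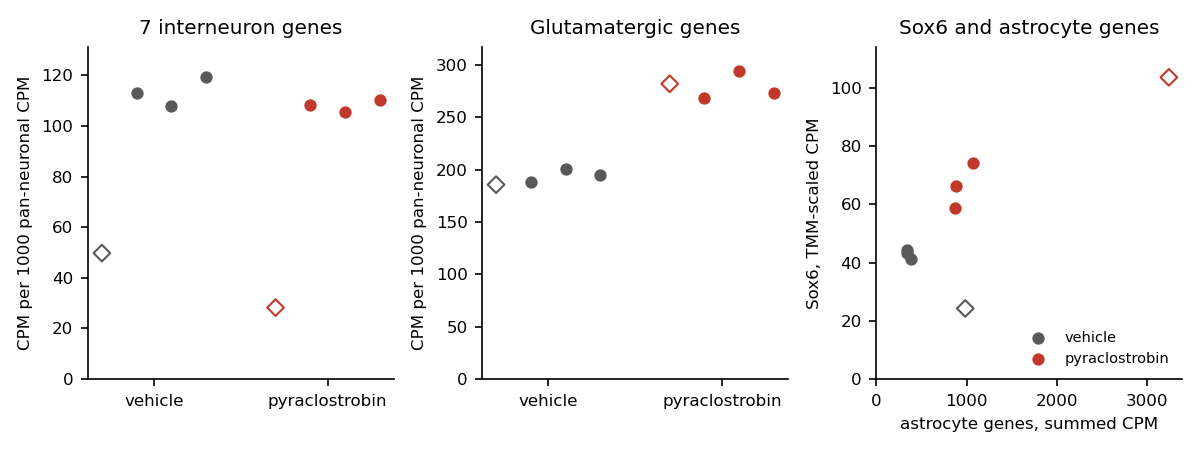
Left and middle, summed CPM of the 7 members other than Sox6 and of the glutamatergic genes per 1000 CPM of pan-neuronal genes in each library. Right, Sox6 CPM against the summed CPM of astrocyte genes. Grey, vehicle; red, pyraclostrobin; open diamonds, library 1 of each group. Libraries 2 to 4 have 108 to 119 member CPM per 1000 in vehicle and 105 to 110 with pyraclostrobin.

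In the screen table, values are log10 RPKM that the authors normalized and centred, expressed here in log2 as differences from a gene's median over libraries. They hold no absolute level. Among 49 vehicle libraries the members had SDs of 0.19 (Sox6) to 0.47 (Dlx5), the latter at percentile 80.8 of all genes and the former at 33.6. Gad1 ranged from -0.48 to 1.48 with a median of -0.02, Gad2 from -0.48 to 1.399 with a median of -0.04, and Slc32a1 from -0.32 to 1.14 with a median of 0.08. One and the same vehicle library held the top of all 3 ranges, and was also the highest for Dlx1 (0.58), Dlx5 (1.10) and Lhx6 (0.84), but not for Sox6 (-0.01). Without it the SD of Gad1 was 0.19 in place of 0.29.

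The inhibitors of complexes I and III of the respiratory chain were then compared with all other chemicals, with 1 median per chemical (11 against 286). The class was drawn up by known target, and its doses ran from 0.01 to 10 μM. It holds 1 of the pyraclostrobin libraries described above (library 1), so the comparisons share that sample. At an adjusted p under 0.05 (limma, 13304 genes) 6 members fell, 1 rose and Dlx2 was not called, where 24.3% of all genes were called, 15.6% lower and 8.76% higher. These counts were the same when any 1 of the 11 chemicals was left out.

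Gad2 and Gad1 had the largest differences of the 8 members. Gad2 had class values from -2.41 to 0.12 with a median of -1.06, against -0.90 to 0.86 with a median of -0.07 in the other chemicals, and 6 of 11 chemicals lay below every other chemical. The difference of means was -0.91 (SE 0.08, adjusted p = 6.17e-21). Gad1 ran from -1.69 to 0.02 with a median of -0.72, against -0.89 to 0.54 with a median of -0.04 (difference -0.71, SE 0.07, adjusted p = 1.19e-19). The ranges of both genes overlapped, since several class members sat near the median of the other chemicals. The fit shares a common variance per gene between the groups, yet the class spread more. For Gad2 the SD was 0.93 in the class against 0.21 in the others, and for Gad1 0.68 against 0.18. It was also larger for Slc32a1 (0.68 against 0.16), Dlx1 (0.57 against 0.20), Dlx5 (0.74 against 0.46) and Lhx6 (0.57 against 0.21). For these members the SEs and p-values understate the spread within the class.

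Slc32a1 ran from -1.50 to 0.32 with a median of -0.57, against -0.48 to 0.71 with a median of 0.08 (difference -0.65, SE 0.06, adjusted p = 4.12e-19). Dlx1 ran from -1.58 to 0.12 with a median of -0.62, against -0.62 to 0.74 with a median of -0.01 (difference -0.64, SE 0.07, adjusted p = 7.05e-16). For both genes 10 of the 11 chemicals were below the median of the others.

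Dlx5 (difference -0.69, SE 0.14, adjusted p = 4.08e-05) and Lhx6 (-0.49, SE 0.07, adjusted p = 1.25e-09) also fell. Sox6 rose, from -0.01 to 0.66 with a median of 0.40 against -1.30 to 0.67 with a median of 0.06 (difference 0.26, SE 0.07, adjusted p = 0.00188). Dlx2 ran from -0.42 to 0.28 in the class, inside the range of the other chemicals (difference -0.06, SE 0.10, adjusted p = 0.750).

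Within the class the size of the change differed widely between chemicals. Fenamidone at 10 μM, a complex III inhibitor, had 2 libraries, with Gad2 at -1.96 and -2.86, Gad1 at -1.23 and -2.14 and Sox6 at 0.38 and 0.86. Its median was below the lowest vehicle library for 6 members and above the highest for 1, where 9.35% of all genes lay below and 3.80% above. In library 1 all members but Sox6, and in library 2 all but Dlx2, were outside the vehicle range.

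Pyraclostrobin and fenpyroximate, a complex I inhibitor, both given at 0.1 μM in 1 library, had the same count of 6 members below and 1 above. Pyraclostrobin had Gad1 at -1.60, Gad2 at -2.04, Slc32a1 at -1.50, Dlx1 at -1.58 and Sox6 at 0.57, with 11.4% of all genes below and 4.65% above. Fenpyroximate had Gad1 at -1.55, Gad2 at -1.55, Slc32a1 at -1.41, Dlx1 at -1.41 and Sox6 at 0.66, with 11.8% below and 5.07% above. Pyridaben, also at 0.1 μM, had 3 members below (Gad2 at -1.06, Gad1 at -0.76, Slc32a1 at -0.65), where 4.71% of all genes lay below. Azoxystrobin at the same 0.1 μM, in 2 libraries, had none outside the vehicle range, with Gad2 at 0.03 and 0.08. Of all genes only 0.21% lay below and 0.173% above that range with azoxystrobin, so few members would be outside it in any case. With 1 library for most of these chemicals the differences between them have no test.

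Trifloxystrobin (10 μM, 1 library) and famoxadone (10 μM, 2 libraries) had 4 members each below the vehicle range, against 10.8% and 7.37% of all genes. The count for famoxadone rests on its library 2, with Gad2 at -1.90, Dlx1 at -1.54, Gad1 at -0.96 and Slc32a1 at -0.93. In its library 1 Gad2 (-0.69) was the 1 member below the range. Tebufenpyrad (0.01 μM), fluoxastrobin (1 μM) and cyazofamid (10 μM), with 1 library each, had none outside it. Of all genes 2% lay below and 0.511% above the range with fluoxastrobin, and 1.04% and 0.173% with cyazofamid. At such shares few members would be outside in any case. The share for tebufenpyrad is not given here. Rotenone (0.01 μM, 2 libraries) had none by its median, where 2.36% of all genes lay below and 1.43% above. In its library 1, however, Gad1 (-0.53) and Gad2 (-0.54) were below and Sox6 (0.59) above the range. Since doses differed, these values are given side by side only.

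**Figure D3:**
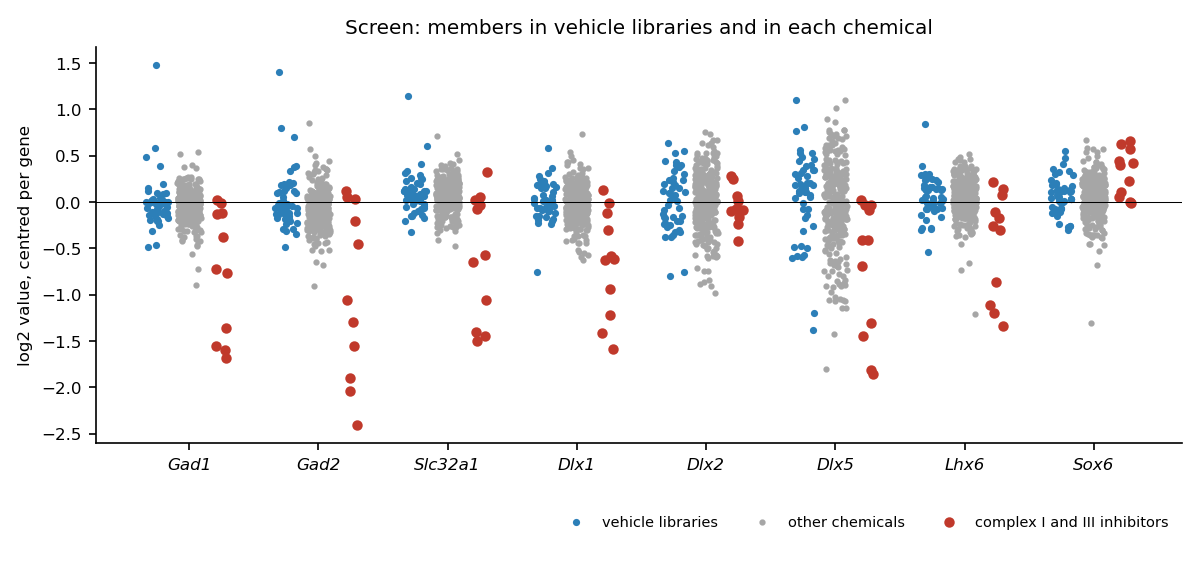
Value of each member (log2 difference from its median over libraries) for the 49 vehicle libraries (blue), the other chemicals (grey) and the complex I and III inhibitors (red), 1 point per library or chemical. Complex I and III inhibitors reach -2.41 for Gad2 and 0.66 for Sox6, and stay between -0.42 and 0.28 for Dlx2.

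Genes around the members moved as follows in the same class. Of 11 interneuron transcription factors 3 fell, among them Npas1 (-0.36) and Sp9 (-0.22), and Nr2f2 rose (0.14). Of 12 subtype genes 5 fell, led by Sst, the somatostatin gene (-0.53, adjusted p = 3.7e-08). Of 6 GABA-handling genes 3 fell, among them Slc6a11 (-0.26), and Abat, which degrades GABA, rose (0.12). All 6 pan-neuronal genes fell (median -0.32, with -0.65 for the members), and 5 of 7 astrocyte and 3 of 3 vascular and fibroblast genes rose. Glutamatergic genes fell in 4 of 10 cases and striatal genes in 4 of 8. The median over all genes was -0.00, and the part of other cell types in the change was not tested.

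Topotecan traps topoisomerase I on DNA, and in neurons it is known to lower the expression of long genes. Its 32 libraries were compared with the 49 vehicle libraries. Here 4 members fell and none rose (limma, adjusted p under 0.05; at an unadjusted p under 0.05 also 4 and 0), where 45.8% of all genes were called, 20.9% lower and 24.9% higher. The 4 were Sox6, Gad2, Gad1 and Slc32a1.

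Sox6, the longest member, ranged from -1.19 to 0.19 with a median of -0.68 in topotecan, against -0.30 to 0.55 with a median of 0.07 in vehicle. In 29 of 32 libraries it was below every vehicle library (difference of means -0.74, SE 0.05, adjusted p = 8.47e-22). Its direction was thus opposite to that with pyraclostrobin and the complex I and III inhibitors, although the difference between these contrasts was not tested.

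Gad2 ranged from -0.97 to -0.04 with a median of -0.64, against -0.48 to 1.399 in vehicle, and 22 of 32 libraries were below every vehicle library (difference -0.62, SE 0.07, adjusted p = 1.47e-13). Gad1 ranged from -0.77 to -0.02 with a median of -0.56, and 19 libraries were below every vehicle library (difference -0.50, SE 0.06, adjusted p = 4.04e-11). Slc32a1 ranged from -0.64 to 0.38 with a median of -0.19, and 11 libraries were below (difference -0.29, SE 0.05, adjusted p = 1.22e-06).

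The homeobox members were near vehicle. Dlx1 differed by 0.02 (SE 0.05, adjusted p = 0.776), Dlx2 by -0.01 (SE 0.07, 0.888), Dlx5 by 0.08 (SE 0.10, 0.523) and Lhx6 by 0.01 (SE 0.05, 0.852). None of their 32 topotecan libraries was below the vehicle range. The genes called lower span 5.0 kb (Slc32a1) to 567.4 kb (Sox6), and those not called 3.3 to 23.5 kb.

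**Figure D4:**
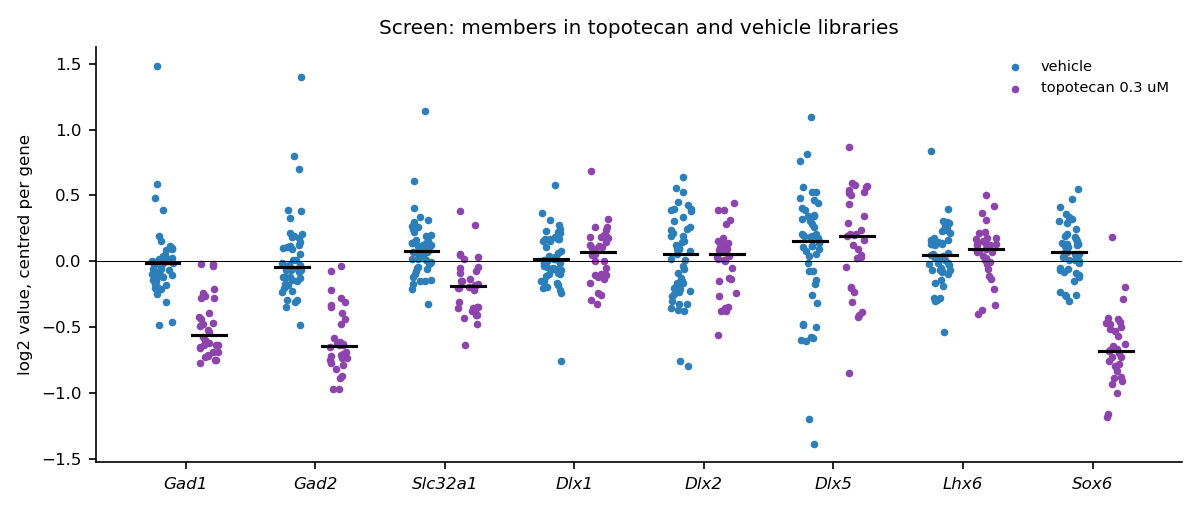
Values of the 8 members (log2 difference from each gene's median) in the 49 vehicle and the 32 topotecan libraries, 1 point per library. Topotecan medians are -0.68 for Sox6, -0.64 for Gad2, -0.56 for Gad1 and -0.19 for Slc32a1, and between 0.05 and 0.19 for the other members.

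Camptothecin at 0.3 μM, another topoisomerase I inhibitor with 1 library, had Sox6 at -1.30, Gad2 at -0.90, Gad1 at -0.89 and Slc32a1 at -0.41. These 4 members were below the vehicle range, as were 8.64% of all genes. Irinotecan at 10 μM had Sox6 at -0.14 and Gad2 at -0.46, inside the range. Among the lists, Erbb4, a neuregulin receptor of migrating interneurons, differed by -2.69 under topotecan (limma, adjusted p = 1.32e-25) and Reln, which encodes reelin, by -1.46 (6.56e-31). Of the 4 migration receptors, with Erbb4 among them, 2 fell and 2 rose. Of 12 interneuron subtype genes, with Reln among them, 6 fell and 3 rose. Of 11 interneuron transcription factors 2 fell (Satb1 at -0.75, Dlx6 at -1.13) and 2 rose (Maf at 0.21, Sp9 at 0.15). Pan-neuronal genes fell in 6 of 6 cases (median -0.29). Of 8 striatal projection neuron genes, whose cells share the GABA genes, 7 fell and 1 rose (median -0.39). Of 10 glutamatergic genes 7 rose and 3 fell (median 0.22), and of 7 astrocyte genes 4 fell and 1 rose. The part of other cell types in the change was not tested.

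Insecticides that act on neuronal excitability were compared in the same way. No member was called for the 12 pyrethroids, which hold sodium channels open, against 285 other chemicals (limma), where 0.451% of all genes were called. At an unadjusted p under 0.05 there were 1545 genes, among them 1 member, Dlx2 (difference -0.28, SE 0.09, p = 0.00233, adjusted p = 0.123). Dlx2 was below the median of the other chemicals in 11 of 12 pyrethroids, from -0.87 to 0.27. Fenpropathrin, a pyrethroid, had the highest Gad1 (0.54) and Gad2 (0.86) of all 297 chemicals.

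For the 3 blockers of GABA-gated chloride channels, the receptors for the transmitter that these cells release, no member was called either (limma). Of all genes 0% were called, with 853 genes and 0 members at an unadjusted p under 0.05. Gad1 differed by 0.21 (SE 0.15, adjusted p = 0.832) and ran from -0.02 to 0.36, above the median of the other chemicals in all 3. These values lay inside the vehicle range of Gad1 (-0.48 to 1.48). Gad2 was also above its median of the other chemicals in all 3, and Dlx2 was below in all 3. Each of the remaining members was below in 2 of 3.

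By the mean over the 8 members, the lowest chemicals were fenamidone (-1.20), pyraclostrobin (-1.08), fenpyroximate (-1.07), trifloxystrobin (-0.88) and pyridaben (-0.50), all complex I or III inhibitors. The highest were MCPA (0.32), ethoprop (0.28), fipronil (0.27), prometon (0.27) and ethylenethiourea (0.27). Single members had their extremes elsewhere in part. Dlx2 was lowest with acibenzolar-S-methyl (-0.98) and highest with prometon (0.76), and Sox6 was lowest with camptothecin (-1.30) and highest with mepiquat chloride (0.67). Slc32a1 and Dlx1 shared both extremes, pyraclostrobin (-1.50 and -1.58) and ethofumesate (0.71 and 0.74). The pyraclostrobin values of the screen come from library 1 alone, which stood apart in the count table with Slc32a1 at 22.4 CPM and Dlx1 at 9.81 CPM, against 86.0 to 102 CPM and 30.4 to 45.5 CPM in the other 3 libraries. Dlx5 was lowest with fenpyroximate (-1.86) and highest with symclosene (1.10), and Lhx6 was lowest with fenpyroximate (-1.34) and highest with methamidophos (0.51).

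Over the 49 vehicle libraries the 3 GABA genes varied together. Pearson's r was 0.89 for Gad1 and Slc32a1, 0.86 for Gad1 and Gad2 and 0.82 for Gad2 and Slc32a1, and without the library that stood apart it was 0.79, 0.75 and 0.68 (n = 48). The 21 pairs without Sox6 were all positive (0.23 to 0.89, median 0.36), and the pairs with Sox6 had a median of -0.12. Without the library that stood apart the 21 pairs were still positive, but ran from 0.04 to 0.79 (median 0.30). The pairs with Sox6 then had a median of -0.10. The points share their normalization and batch removal, so these values are a description.

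**Figure D5:**
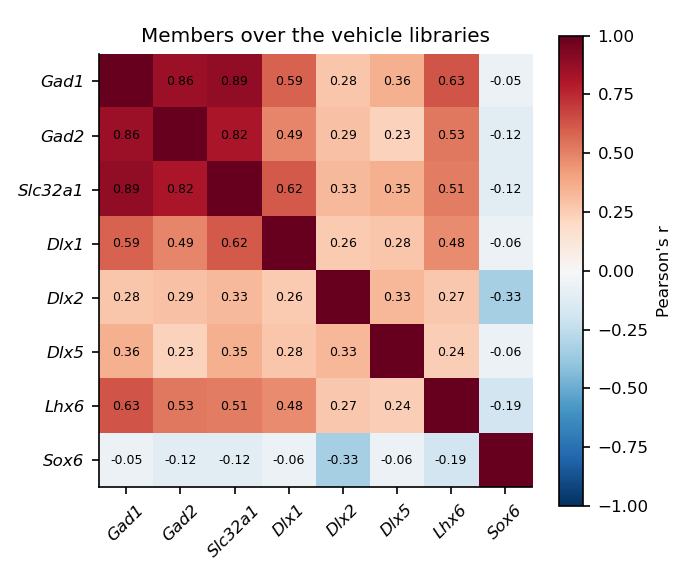
Pearson correlation of each pair of members over the 49 vehicle libraries. The block of Gad1, Gad2 and Slc32a1 holds the highest values (0.82 to 0.89), and Sox6 has a median of -0.12 with the others.

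Among 5119 other variable genes, those most like the mean of the members over vehicle libraries were Dlx6os1, the antisense RNA at Dlx6 (r = 0.83), Spock3 (0.78), Cadps, a factor of vesicle priming (0.75), Lhfpl3 (0.73) and Esrrg (0.72). The least like it were Rassf4 (-0.68), the proliferation gene Mki67 (-0.67), the caveolin gene Cav1 (-0.67), Lgals3bp (-0.67) and the MHC class I gene H2-K1 (-0.63). Without the library that stood apart Dlx6os1 was at 0.69 and Mki67 at -0.34.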

How the data were processed

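The screen table and the pyraclostrobin count table were used. Per the study's methods and the submitters' processing notes, the authors aligned reads with TopHat to mm9. The deposited counts are whole reads over RefSeq exons. The deposited screen values are log10 RPKM of genes detected in most samples, which the authors quantile-normalized, median-centred and cleared of batch. They were converted here to log2. A further 6 per-sample columns could not be mapped to a sample, because they carry one name, and the comparison of sulforaphane with fenamidone was not run. Counts were tested with edgeR 4.0.16 (quasi-likelihood, trimmed-mean scaling, at least 10 counts in at least 4 libraries) and screen values with limma 3.58.1, in R 4.3.3, with Benjamini-Hochberg adjustment over all genes tested and a threshold of 0.05. Alternatives included DESeq2 1.42.0. Fits were tested on simulated data. Figures were drawn with matplotlib 3.10.9. All 8 members are named, with up to 4 genes per list by adjusted p, the 5 most and 5 least similar genes, and the extreme chemicals. Members and lists were chosen with earlier results of these data known. Groups came from the labels, and vehicle columns of the count table were matched by group. No pair of libraries was a duplicate by their counts. Results of some list genes are not reported here.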

Additional observations from a re-analysis of the deposited data

Results flagged for a closer look

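In all, 50 groups of 4 libraries were tested, from the count table and from the diethyltoluamide libraries of the screen. Of these, 10 held a library whose gap to its nearest neighbour exceeded Dixon's 95% limit. For independent groups chance would give about 1 in 20. These groups are genes and gene sums of the same few libraries, so their count cannot be set against that rate. All 10 were in the count table, and in each it was library 1 of its group. In vehicle library 1, Sox6 was at 24.3 CPM, the summed interneuron transcription factors at 376 CPM, the interneuron subtype genes at 587 CPM and the GABA-handling genes at 1051 CPM, all the lowest of the group. In the same library the astrocyte genes (984 CPM), the oligodendrocyte-lineage genes (195 CPM) and the vascular and fibroblast genes (108 CPM) were the highest. In pyraclostrobin library 1 the interneuron subtype genes were the lowest (446 CPM), and the astrocyte genes (3238 CPM) and proliferation genes (144 CPM) the highest. The cause was not tested.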

How the results depend on the processing

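For pyraclostrobin, 5 members were called lower with no filter on low counts, with the replicate block and, chosen after seeing the data, without library 1 of both groups. The share of all genes called is not given here for the fits without the filter and without library 1. At a threshold of 0.01 there was 1 member lower (2631 genes in all). Leaving out single libraries gave 2 to 5 members lower (5 without vehicle library 1, 4 without pyraclostrobin library 1, 2 without any other). DESeq2 called 3, with Lhx6 (adjusted p = 0.0396) in place of Gad2. Deviations of same-numbered libraries correlated at 0.38, 0.10, -0.02 and 0.17. Vehicle library 1 correlated at -0.24, -0.03 and -0.27 with pyraclostrobin libraries 2, 3 and 4, so the libraries numbered 1 deviated together. These values do not decide between the fits with and without the block. The fit without it was kept as the main one, and it calls fewer members lower. With variable genes only, of which fewer are tested, topotecan had 1 member lower (1788 genes) and complex I and III inhibitors 2 lower and 0 higher (644 genes). The set holds 5121 genes, of which 5119 are not members, so most members were not tested in it. The smaller counts are thus no loss of calls. Against medians of other chemicals, topotecan had 1 member higher (Dlx5, 0.22) and Dlx2 at 0.0042. Pyrethroids had 469 genes called with single libraries against vehicle, 10 among variable genes, 3 at 0.01 and 1 to 219 with single chemicals left out, where 0 to 1 members were lower (Dlx2, without d-cis,trans-allethrin). With single libraries Gad2 was at -0.024, Slc32a1 at -0.046 and Dlx5 at -0.062 for pyrethroids, and Dlx5 at -0.12 for GABA-gated channel blockers. With single chemicals left out, pyrethroid differences ran from -0.054 to 0.019 for Lhx6 and -0.023 to 0.040 for Slc32a1. Those of the channel blockers ran from -0.32 to 0.082 for Dlx1, -0.38 to 0.39 for Dlx5, -0.019 to 0.17 for Lhx6 and -0.065 to 0.16 for Slc32a1, with 0 to 1 genes called. Without the vehicle library that stood apart, 34 member values of single chemicals were above the vehicle range in place of 13, and SDs were 0.192 (Gad1), 0.246 (Gad2), 0.171 (Slc32a1) and 0.190 (Lhx6). The scaled median absolute deviation was 0.137 (Gad1), 0.209 (Gad2), 0.141 (Slc32a1), 0.374 (Dlx2), 0.339 (Dlx5), 0.172 (Lhx6) and 0.165 (Sox6). Over the longest transcript, vehicle levels were 72.0 (Gad1), 20.7 (Dlx1), 6.91 (Dlx2) and 19.5 CPM per kb (Lhx6). Causes were not tested. No alternative was run for sulforaphane and fenamidone, whose columns could not be told apart. Depth limits Dlx5, with 3 to 101 counts per library, and screen depth is unknown.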
